A study of Mus musculus with 12 samples.

Results

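The 4 microRNAs described here, miR-134, miR-485, miR-137 and miR-138, are known for their work at synapses, and were followed in small RNA libraries from the mouse hippocampus. They were chosen by name out of 1087 annotated miRNA names, and they come from 5 of 1174 annotated hairpins, since miR-138 has 2 loci. Reads were selected on sequence, as a deposited tag (a distinct insert with its read count) was assigned to a hairpin only where it matched without mismatch over its full length. Of 30022027 exact miRNA reads in the series, 246969 belonged to these miRNAs, spread over 177 distinct tags and all 8 arms. No threshold on a level or on a difference between libraries entered the choice. The levels below are percentages of all exact miRNA counts of a library, and are given as a description.

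The libraries were made from individual male C57BL/6NCrl mice of 6 to 8 weeks, with no pooling. Mice were untreated (NT) or were taken at 0.5, 1, 3, 6 or 24 h after a single electroconvulsive shock (ECS), a brief current through the head that depolarizes neurons of the whole brain and causes a seizure. Each of the 6 groups held 2 libraries, numbered 1 for the first time course and 2 for the second, so that 0.5h-2 is the library of 0.5 h in the second time course. The spread between replicates therefore holds the difference between mice and that between time courses, which cannot be told apart in a single group. The study's own listings do not all print the 2 untreated libraries in the same order, and the numbers of the labels were followed here. Every fold over the untreated library of a time course, and every pairing of NT-1 and NT-2, depends on these numbers, while the test of ECS times without a block does not. The labels name no transgene or mutation, and the whole hippocampus was used, with all of its cell types, so that fewer cells of a type and less miRNA per cell cannot be told apart. Accepted reads ranged from 3674297 to 6792932 in the first time course and from 1897490 to 7657222 in the second. Exact miRNA reads, the denominator of all percentages, ranged from 439336 to 4282006.

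The libraries of the 2 time courses stood apart, and NT-1 stood apart within the first. Of the miRNA counts of NT-1, 51.4% lay on tags of 18 or 19 nt, against 0.910% to 16.9% in the other 11 libraries. Tags of 24 nt or more made up 0.00478% to 0.0579% of the miRNA counts in the first time course and 0.464% to 2.05% in the second. Of the untreated libraries, NT-1 was at 0.0504% and NT-2 at 0.514%. Marker miRNAs of neurons (miR-124, miR-128 and miR-9) summed to between 5.82% (24h-2) and 30.3% (NT-1) of the miRNA counts, and those of oligodendrocytes (miR-219 and miR-338) to between 0.273% (NT-1) and 1.82%. Markers of blood vessels (miR-143, miR-145 and miR-126) made up 6.30% to 14.5% in the first time course and 0.565% to 1.65% in the second. Myeloid markers (miR-142, miR-223 and miR-155) made up 0.0994% to 0.979% and 0.0158% to 0.232%, and red blood cell markers (miR-451, miR-144 and miR-486) 0.0332% to 0.199% and 0.0168% to 0.0259%. These are sums, and the arms of a set did not all go the same way. In the model described below, the median log2 fold change of the 5 red blood cell arms was 0.58, higher in the second time course, although 1 was called lower. The part of these differences in the results below was not tested.

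A microRNA is cut from a hairpin by the enzymes Drosha and Dicer, and 1 arm of the resulting duplex is loaded into an Argonaute protein, where bases 2 to 8 from its 5′ end, the seed, pair with target mRNAs. In neurons, miR-134 and miR-138 are known to lie in dendrites, where they hold back the translation of Limk1 and of Lypla1, a depalmitoylating enzyme, and so restrain the growth of dendritic spines. miR-137 acts on presynaptic vesicle release and on neuronal maturation, and miR-485 acts on SV2A, a protein of synaptic vesicles.

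Mir134 (chr12:109734139-109734209) and Mir485 (chr12:109734902-109734974) lie 692 bp apart on the plus strand of GRCm38, in the miR-379/410 cluster of the imprinted Dlk1-Dio3 region. Both are inside the long noncoding RNA gene Mirg, each within an exon of 3 of its 12 annotated transcripts. Mir137 (chr3:118433857-118433929) lies in the noncoding gene Gm26871, within an exon of 2 of 6 transcripts. Mir138-1 (chr9:122682876-122682974) lies within an exon of Gm47135, a transcribed pseudogene, and Mir138-2 (chr8:94324311-94324381) within the exon of the long noncoding RNA C78859. No read matched the opposite strand of any of the 5 hairpins.

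The mature sequences of the more abundant arms, from RefSeq (GRCm38.p6), are printed with the seed in capitals because the shifts in tag start described below move this window. The same RefSeq table, which holds 1679 names, has no mature miR-485-5p, so that arm is not printed and its seed was not compared. No other mature mouse sequence in it has any of the 4 seeds below. No list of miRNAs with a shared seed could thus be formed for these arms.
miR-134-5p: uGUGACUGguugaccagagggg
miR-485-3p: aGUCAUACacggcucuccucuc
miR-137-3p: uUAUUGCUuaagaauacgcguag
miR-138-5p: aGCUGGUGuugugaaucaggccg

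The opposite arms of miR-134, miR-137 and miR-138 are printed because they show how far the arms were unequal. Of the mature arms of miR-138, only the 3′ arm differs between the 2 loci.
miR-134-3p: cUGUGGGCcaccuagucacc
miR-137-5p: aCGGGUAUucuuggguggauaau
miR-138-1-3p: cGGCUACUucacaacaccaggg
miR-138-2-3p: gCUAUUUCacgacaccagggu

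The 5′ arm of miR-138 was the most abundant arm of the 4 miRNAs in all 12 libraries. Its mean level was 0.839% ± 0.719 (SD, n = 12) of miRNA counts, which ranked 23rd among all arms by mean. The 3′ arm of miR-485 (0.0562% ± 0.0183), the 5′ arm of miR-485 (0.0517% ± 0.0459), the 3′ arm of miR-137 (0.0488% ± 0.0392) and the 5′ arm of miR-134 (0.0419% ± 0.0388, each SD, n = 12) followed at ranks 98, 101, 106 and 109. These 4 means lay within 1 SD of each other. Below miR-138 the order of the arms varied, and the 5′ arm of miR-134 was second in NT-1, 3h-1 and 24h-1 but last of the 5 in all 6 libraries of the second time course. The intervals of single libraries cited below are Wilson 95% intervals and cover counting error only, since PCR copies of 1 molecule could not be told from separate molecules.

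**Figure D1:**
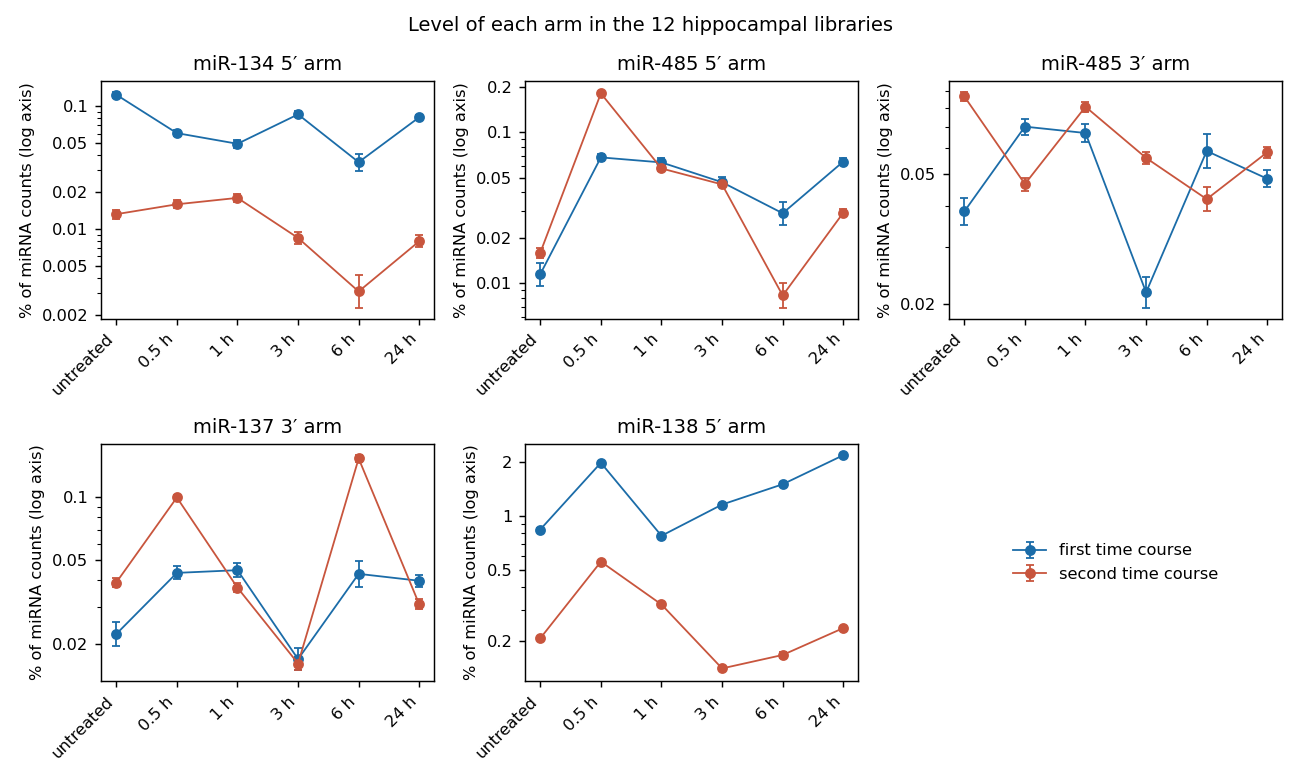
Percent of all exact miRNA counts (log axis) of the 5 more abundant arms, by time after ECS, in the first and second time course. Points are single libraries, bars are Wilson 95% intervals, and lines join the libraries of a time course only to guide the eye. The 5′ arms of miR-134 and miR-138 are higher in the first time course at all 6 time points, and the 5′ arm of miR-485 is lowest in NT-1 in the first and in 6h-2 and NT-2 in the second.

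The level of miR-134 separated the time courses completely. In the first, its 5′ arm made up 0.124% of miRNA counts in NT-1, 0.0605% in 0.5h-1, 0.0495% in 1h-1, 0.0859% in 3h-1, 0.0351% in 6h-1 and 0.0814% in 24h-1. In the second, it made up 0.0132% in NT-2, 0.0159% in 0.5h-2, 0.0179% in 1h-2, 0.00846% in 3h-2, 0.00310% in 6h-2 and 0.00796% in 24h-2. The lowest library of the first time course thus lay above the highest of the second, and within both time courses the 6 h library was lowest. How many of all arms separate in this way was not counted. In the model described below, 32.2% of all arms differed between the time courses. The lowest value rested on 41 counts (0.00229% to 0.00421%) and the highest on 1327 (0.118% to 0.131%). The mean was 0.0728% ± 0.0317 (SD, n = 6) against 0.0111% ± 0.00557 (SD, n = 6), which is 6.56-fold higher in the first. With NT-1 and NT-2 exchanged the time courses would overlap for this arm, and the same holds for miR-138-5p below.

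The 3′ arm of miR-134 was barely sequenced. It had 13 counts in all, with at most 2 in any of 9 libraries and 0 in NT-1, 6h-1 and 6h-2. A count of 0 allows a level of up to 3 counts of the total, which was 0.000281% in NT-1, 0.000683% in 6h-1 and 0.000227% in 6h-2.

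miR-138 showed the same separation at a higher level. Its 5′ arm made up 0.841% in NT-1, 1.98% in 0.5h-1, 0.776% in 1h-1, 1.16% in 3h-1, 1.502% in 6h-1 and 2.18% in 24h-1. In the second time course it made up 0.208% in NT-2, 0.556% in 0.5h-2, 0.321% in 1h-2, 0.141% in 3h-2, 0.168% in 6h-2 and 0.237% in 24h-2. In exact counts the groups did not overlap, and the means were 1.41% ± 0.586 and 0.272% ± 0.153 (SD, n = 6 each), a 5.17-fold difference. Counted by the first 18 nt of the tag, which keeps tags with an added base, the groups did overlap. The level was then 0.849% in 0.5h-2 and 0.802% in 1h-1. The 0.5 h library was 2.35-fold above its own untreated library in the first time course and 2.67-fold above it in the second. At 1, 3 and 6 h the time courses went opposite ways. The first was at 0.922-fold, 1.38-fold and 1.79-fold of NT-1, and the second at 1.54-fold, 0.679-fold and 0.807-fold of NT-2.

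miR-137 did not separate the time courses. Its 3′ arm made up 0.0222% in NT-1, 0.0435% in 0.5h-1, 0.0448% in 1h-1, 0.0169% in 3h-1, 0.0430% in 6h-1 and 0.0399% in 24h-1. In the second time course it made up 0.0391% in NT-2, 0.0996% in 0.5h-2, 0.0370% in 1h-2, 0.0161% in 3h-2, 0.153% in 6h-2 and 0.0307% in 24h-2. The 3 h libraries were the lowest of both time courses and nearly equal, and the highest value, in 6h-2, came from the library with the lowest miR-134 level. The 5′ arm of miR-137 was rare, with 5 to 43 counts per library and 237 in all.

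The arms of miR-485 differed in their course. The 3′ arm made up 0.0385% in NT-1, 0.0700% in 0.5h-1, 0.0669% in 1h-1, 0.0218% in 3h-1, 0.0590% in 6h-1 and 0.0485% in 24h-1. In the second time course it made up 0.0866% in NT-2, 0.0467% in 0.5h-2, 0.0805% in 1h-2, 0.0561% in 3h-2, 0.0420% in 6h-2 and 0.0584% in 24h-2. All 5 ECS libraries of the second time course thus lay below NT-2, while 4 of 5 in the first lay above NT-1.

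The 5′ arm of miR-485 was low without treatment in both time courses. It made up 0.0115% in NT-1 (0.00966% to 0.0137%), 0.0683% in 0.5h-1, 0.0632% in 1h-1, 0.0468% in 3h-1, 0.0291% in 6h-1 and 0.0641% in 24h-1. In the second time course it made up 0.0160% in NT-2 (0.0148% to 0.0172%), 0.181% in 0.5h-2, 0.0577% in 1h-2, 0.0452% in 3h-2, 0.00832% in 6h-2 and 0.0294% in 24h-2. All ECS libraries except 6h-2 lay above the untreated library of their time course, by 1.84-fold to 11.3-fold. The 0.5 h library was the highest of both time courses, at 5.93-fold and 11.3-fold of its untreated library. Whichever untreated library is used, 9 of 10 ECS libraries lay above it.

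Whether these levels differed with time after ECS was asked of a model of the 469 arms that reached 10 counts in 2 or more libraries (edgeR's quasi-likelihood test, Benjamini-Hochberg adjusted over all arms, threshold 0.05). In comparison with NT, 0% of all arms passed at 0.5 h, and likewise 0% at 1, 3, 6 and 24 h, while 9, 2, 10, 9 and 7 arms had an unadjusted p under 0.05. DESeq2 called 1, 0, 2, 0 and 0 arms, and 2, 0, 5, 3 and 0 with the time course as a block. The 7 arms of the 4 miRNAs that entered the model gave 35 tests, of which 0 passed and 2 had an unadjusted p under 0.05. Both were of the 5′ arm of miR-485.

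For that arm the log2 fold change against untreated was 3.29 (SE 1.08) at 0.5 h, with an unadjusted p of 0.00935 and an adjusted p of 0.988 in edgeR. Without 1 library each it ranged from 2.25 (without 0.5h-2) to 4.01 (without NT-2). It was 1.86 (SE 1.02) at 1 h, 2.28 (SE 1.03) at 3 h, 0.42 (SE 0.99) at 6 h and 2.09 (SE 1.03) at 24 h, with an adjusted p of at least 0.989 at each of these times in edgeR. The call at 0.5 h depended on the tool, since DESeq2 gave 3.35 with an adjusted p of 0.0474, and 3.31 with an adjusted p of 0.00987 with the time course as a block. With the block, edgeR gave 3.26 with an adjusted p of 0.699. In DESeq2 it was the only one of the 35 tests that passed, with or without the block.

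For each other arm the ECS time with the value furthest from 0 is given, and none passed in edgeR. It was 6 h for miR-137-3p (log2 fold change 2.21, SE 1.16), and without 6h-2 the value was 0.11. For miR-138-5p it was 24 h (1.72, SE 1.25), and without 24h-1 the value was -0.25. It was 6 h for miR-134-5p (-1.71, SE 1.41), and the value without NT-1 was 0.087. The 3′ arm of miR-485 stayed within 0.18 of 0 on the log2 scale at all 5 times, with an SE of 1.04 at each. Of the rarer arms, miR-137-5p reached 1.69 (SE 1.06) at 0.5 h and miR-138-3p -0.86 (SE 1.05) at 3 h. The former was 1.09 without 0.5h-1, and the latter ranged from -2.49 without 3h-2 to -0.29 without NT-1.

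The difference between the time courses was asked of the same model with the time point as a term. Of all arms 32.2% passed (151 of 469), 19.8% higher and 12.4% lower in the second time course. Of the 7 arms of the 4 miRNAs, 2 passed and both were lower. These were miR-134-5p, with a log2 fold change of -2.20 (SE 0.51, adjusted p = 0.00745 in edgeR), and miR-138-5p, with -1.80 (SE 0.46, adjusted p = 0.0109 in edgeR). Both passed under all 19 alternatives, with an adjusted p of at most 0.0234 for miR-134-5p and 0.0418 for miR-138-5p. The share of the 7 arms called lower rests on very few arms, beside 12.4% of all arms.

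The other 5 arms did not pass. The values were 1.12 (SE 0.52, adjusted p = 0.104 in edgeR) for miR-137-3p, 0.97 (SE 0.48, adjusted p = 0.131) for miR-485-3p and 0.43 (SE 0.50, adjusted p = 0.522) for miR-485-5p. They were -0.47 (SE 0.52, adjusted p = 0.495) for miR-137-5p and -0.42 (SE 0.56, adjusted p = 0.585) for miR-138-3p. DESeq2 put miR-137-3p past the threshold (1.07, adjusted p = 0.0455).

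The scaling moved all of these values together. The median log2 fold change over the 469 arms was 0.29 with TMM factors and -0.30 when libraries were scaled to their total miRNA count, and the latter called 49 arms higher and 113 lower in place of 93 and 58. Scaled to the total, miR-134-5p was at -2.81 and miR-138-5p at -2.42, both still called, and miR-485-5p turned to -0.20.

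**Figure D2:**
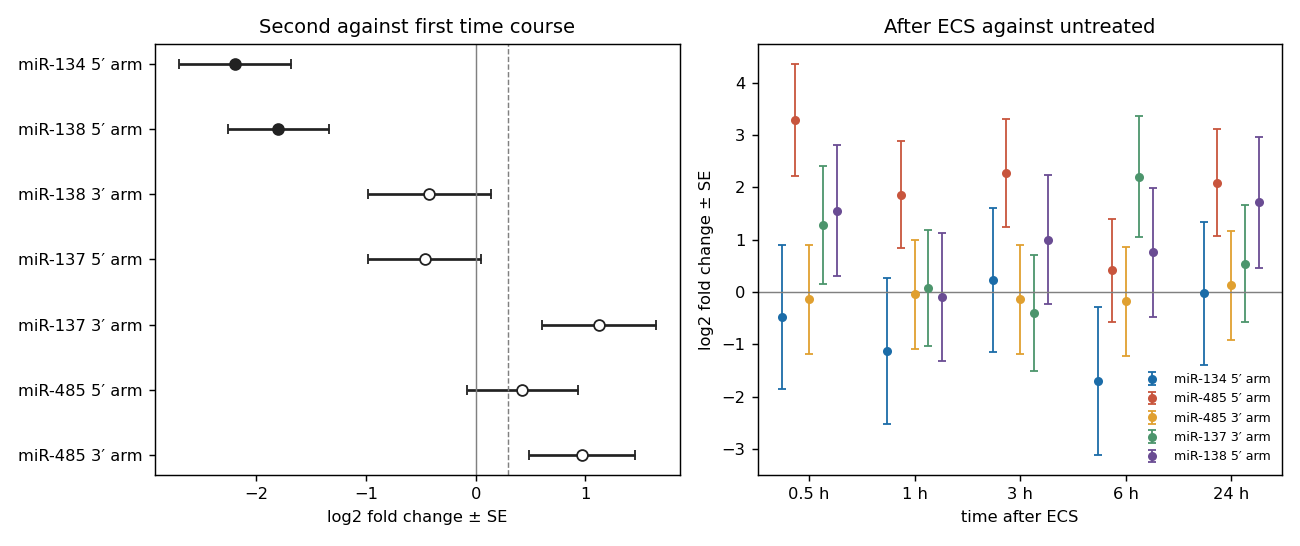
Left, log2 fold change of the second against the first time course for 7 arms, with bars for ± 1 SE, derived from the F statistic of the model of all arms. Filled points passed an adjusted p of 0.05, and the dashed line marks the median of all 469 arms, 0.29. Right, log2 fold change against untreated at each time after ECS, where the value of the 5′ arm of miR-485 at 0.5 h, 3.29, is the highest shown and no point passed in edgeR.

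The share of the 5′ arm among all miR-485 counts does not depend on the scaling of libraries, since both arms are counted in the same library. It was 23.03% in NT-1 (123 of 534 counts, 19.7% to 26.8%), 49.4% in 0.5h-1, 48.6% in 1h-1, 68.2% in 3h-1, 33.1% in 6h-1 and 56.9% in 24h-1. In the second time course it was 15.6% in NT-2 (684 of 4392 counts, 14.5% to 16.7%), 79.5% in 0.5h-2, 41.7% in 1h-2, 44.6% in 3h-2, 16.5% in 6h-2 (110 of 665 counts, 13.9% to 19.6%) and 33.5% in 24h-2. The untreated library was the lowest of its time course both times, although in the second the interval of 6h-2 overlapped that of NT-2. Counting only tags at the main start of each arm, NT-2 was at 23.7% and no longer the lowest, with 18.7% in the lowest ECS library.

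A comparison chosen after these shares were seen averaged the ECS libraries of a time course, subtracted the untreated one and averaged over the time courses. The difference was 27.9 percentage points. With the untreated label moved to each library within each time course, the exact permutation test gave a two-sided p of 0.0833 over 36 arrangements, the smallest possible being 0.0278. It was 0.139 by the same exact permutation test with tags at the main starts only. Over the 10 ECS libraries left out in turn the difference was 23.4 (without 0.5h-2) to 31.2 points, and the exact permutation p 0.0333 (without 0.5h-2, the smallest that 30 arrangements can give) to 0.133. As the low untreated shares prompted the comparison, these p-values are no independent support for it. Between the time courses the share of the 5′ arm was 46.5% ± 16.3 in the first and 38.6% ± 23.5 in the second (SD, n = 6 each; exact permutation test of the 64 flips within time points, two-sided, p = 0.3125).

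**Figure D3:**
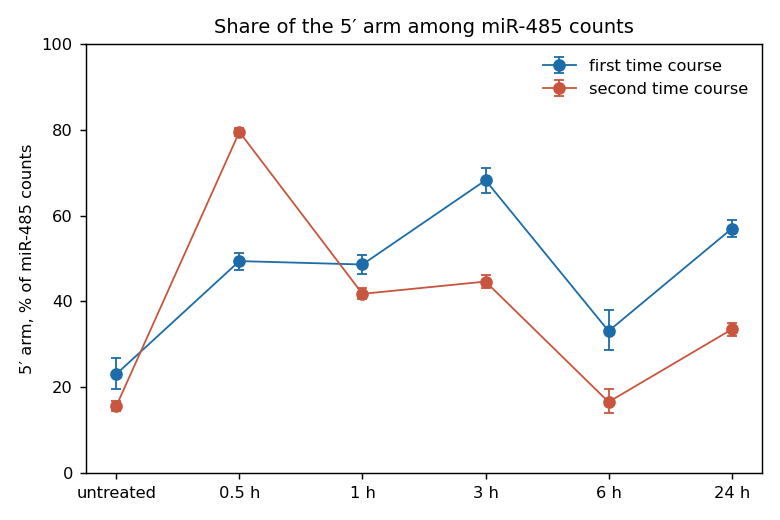
Share of the 5′ arm among all exact miR-485 counts by time after ECS, with Wilson 95% intervals, for the first and second time course. The untreated libraries lie at 23.03% and 15.6%, and 9 of 10 ECS libraries lie between 33.1% and 79.5%, with 6h-2 at 16.5%.

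Tags of miR-134-5p and miR-138-5p nearly always began at the RefSeq start (99.4% and 99.9% of the counts), so their seeds were fixed. The 3′ arm of miR-137 began there in 80.01% of its counts, 1 nt later in 11.9% and 2 nt later in 7.05%. The most abundant tag at each start is printed to show that each later start moves another set of bases into the seed.
miR-137-3p, RefSeq start, 3360 counts: uUAUUGCUuaagaauacgcgua
miR-137-3p, 1 nt later, 798 counts: uAUUGCUUaagaauacgcgu
miR-137-3p, 2 nt later, 355 counts: aUUGCUUAagaauacgcgua

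The RefSeq start of miR-137-3p was used less in the first time course. It held 30.8% of the counts in NT-1, 76.7% in 0.5h-1, 52.1% in 1h-1, 50.6% in 3h-1, 52.9% in 6h-1 and 73.0% in 24h-1, and between 81.7% and 87.1% in the 6 libraries of the second. The groups did not overlap. The second time course was higher in all 6 pairs of libraries, by 28.4 percentage points on average, with a two-sided p of 0.03125 by exact permutation, which is the smallest that 6 pairs can give. In NT-1, the library with the short tags, 47.3% of the miR-137-3p counts began 2 nt later.

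The 3′ arm of miR-485 mostly began elsewhere than in RefSeq. The RefSeq start held 4.57% of its counts, the base after it 30.6%, the base 3 nt after it 56.5% and the base 4 nt after it 6.54%. None of the later seeds equals that of another mature sequence in the RefSeq table. The most abundant tag of each of these starts is printed, again with bases 2 to 8 in capitals.
miR-485-3p, RefSeq start, 599 counts: aGUCAUACacggcucuccucucu
miR-485-3p, 1 nt later, 3961 counts: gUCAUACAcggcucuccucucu
miR-485-3p, 3 nt later, 5548 counts: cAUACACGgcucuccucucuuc
miR-485-3p, 4 nt later, 523 counts: aUACACGGcucuccucucuu

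The start 4 nt after the RefSeq start, shown last, took 35.5% of the miR-485-3p counts in NT-1, 7.98% to 35.5% over the first time course and 3.29% to 4.78% over the second. The RefSeq start itself took at most 1.67% in the first time course and 0.541% to 9.56% in the second. The most used start, at 3 nt, took 64.6% ± 8.58 and 57.6% ± 12.2 (SD, n = 6 each; exact permutation test, two-sided, p = 0.1875). The 5′ arm of miR-485 had 1 main start, with 92.0% to 99.2% of the counts in 11 libraries, but 41.7% in 3h-1, where 409 of 702 counts began 2 nt earlier.

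**Figure D4:**
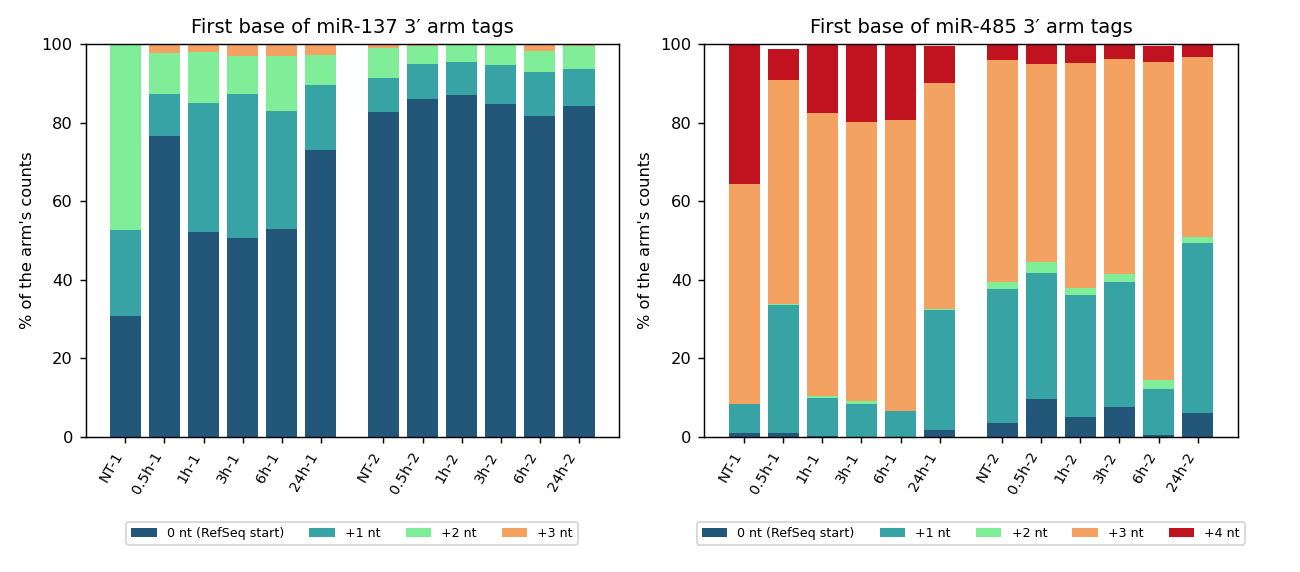
Percent of the exact counts of miR-137-3p (left) and miR-485-3p (right) that begin at each base, counted in nt after the RefSeq start, in the 12 libraries; starts outside the colours shown are left out. The RefSeq start of miR-137-3p holds 30.8% to 76.7% in the first and 81.7% to 87.1% in the second time course, and miR-485-3p begins mostly 3 nt after it.

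Most tags of miR-138-5p and miR-134-5p were shorter than the RefSeq sequences at the 3′ end, whereas the most abundant miR-485-3p tags printed above run past the RefSeq end. For miR-138-5p, 55.7% of the counts lay on the 20-nt tag, 18.9% on 21 nt and 18.7% on 19 nt, while the full RefSeq sequence of 23 nt held 0.371%. For miR-134-5p the 20-nt tag held 67.6% and the RefSeq sequence of 22 nt 2.14%. In NT-1, 89.9% of the miR-134-5p counts and 89.5% of the miR-138-5p counts were 18 or 19 nt long, against 8.76% of those of miR-485-3p.

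Mean tag length was lower in the first time course in all 6 pairs for 3 arms. It was 19.5 ± 0.492 nt against 20.3 ± 0.146 nt for miR-138-5p, 20.4 ± 0.375 nt against 21.2 ± 0.113 nt for miR-137-3p and 20.7 ± 0.426 nt against 21.5 ± 0.0854 nt for miR-485-3p (SD, n = 6 each; exact permutation test, two-sided, p = 0.03125 for each). For miR-134-5p it was 19.7 ± 0.376 nt against 20.1 ± 0.279 nt (exact permutation p = 0.125), and for miR-485-5p 20.3 ± 0.289 nt against 20.3 ± 0.0181 nt (exact permutation p = 0.75).

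Beyond the exact tags, some matched exactly but for 1 extra base at the 3′ end. Enzymes that add A or U to miRNAs are known to make such tags, and a wrong last base of a read gives the same sequence. Such tags numbered 4596 for miR-134-5p, which is 33.997% of exact and extended counts together, and 33845 for miR-138-5p, which is 15.3%. For miR-485-3p, miR-485-5p and miR-137-3p the shares were 11.01%, 7.82% and 5.70%. The extra base was A in 75.4% and U in 21.8% of the extended miR-134-5p tags, and A in 62.1% and U in 28.8% of those of miR-138-5p. The most abundant ones are printed with the added base in capitals.
miR-134-5p, 2297 counts: ugugacugguugaccagagA
miR-134-5p, 728 counts: ugugacugguugaccagagU
miR-138-5p, 10482 counts: agcugguguugugaaucaggcA
miR-138-5p, 7449 counts: agcugguguugugaaucagU

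The share of extended miR-134-5p tags was 17.4% in NT-1, 30.6% in 0.5h-1, 40.7% in 1h-1, 15.7% in 3h-1, 47.8% in 6h-1 and 33.1% in 24h-1, and between 43.3% and 65.0% in the second time course. It was higher in the second in 6 of 6 pairs, by 16.7 percentage points on average (two-sided p = 0.03125 by exact permutation). Since exact matching leaves these tags out, the level of miR-134-5p was also counted by the first 18 nt of the tag. The difference between the time courses was then -1.49 in place of -2.20 on the log2 scale, and was still called (adjusted p = 0.0211 in edgeR).

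In all, 19 such measures of arm share, start, length and added base were compared between the time courses. The exact permutation p was 0.03125, the smallest possible, for 7 of them, among them also the share of the 5′ arm of miR-137 (3.37% ± 1.08 against 1.31% ± 0.733) and the main start of miR-138-5p (99.9% against 99.8%). After Benjamini-Hochberg adjustment over the 19 none passed, and these 7 had an adjusted p of 0.0848 by the permutation test.

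**Figure D5:**
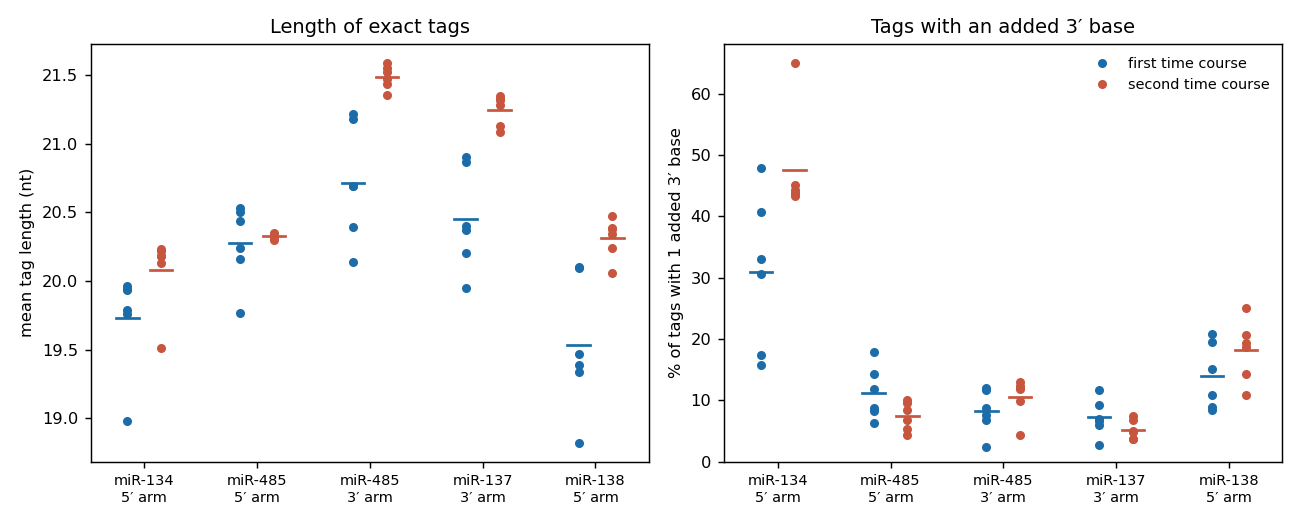
Mean length in nt of the exact tags (left) and percent of exact and extended tags that carry 1 added 3′ base (right) for the 5 more abundant arms, with a point for each library and a line at the mean of the 6 libraries of a time course. Tags of miR-485-3p, miR-137-3p and miR-138-5p are longer in the second time course, and miR-134-5p has the highest share of added bases.

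The 2 loci of miR-138 share the mature 5′ arm, and 99.4% of its counts matched both hairpins. Their 3′ arms differ at 2 of 20 aligned positions, where the arm of Mir138-1 begins 2 nt earlier. Of 412 counts of the 3′ arm, 374 matched Mir138-1 only and 38 matched Mir138-2 only, so 90.8% came from Mir138-1 (exact Clopper-Pearson 95% interval 87.6% to 93.4%). In single libraries it was lowest in 3h-2, at 84.8% of 46 counts, and all of the 42, 6, 8 and 8 counts of NT-1, 3h-1, 6h-1 and 6h-2 came from Mir138-1. Arm levels per locus reflect both output and the stability of each strand, which cannot be told apart here.

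The 5′ arm gave another split. Counts that matched 1 locus only numbered 490 for Mir138-1 and 622 for Mir138-2, and 912 of them were in 0.5h-2, mostly tags of 24 nt that run 1 base past the shared sequence. In that library 4.13% of the miR-138-5p counts were 24 nt or longer, against 0% to 0.989% in the others. The bases of the loci at that position are the ones most often added to this arm, so a templated and an added base cannot be told apart.

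The other miRNAs of the miR-379/410 cluster, 34 names that share the region with miR-134 and miR-485, had 46 arms in the model. Between the time courses 8 were higher and 2 lower in the second, among them miR-543-3p (log2 fold change 4.10, adjusted p = 0.00208 in edgeR) and miR-377-3p (3.51, adjusted p = 0.0189 in edgeR), the highest, and miR-1193-5p (-1.91, adjusted p = 0.0165 in edgeR) and miR-381-5p (-1.67, adjusted p = 0.0130 in edgeR), the ones called lower. Of all arms 19.8% were higher and 12.4% lower, so the list was not called more often than arms in general. The median of the 46 arms was 0.19, beside 0.29 over all arms and -2.20 for miR-134-5p. After ECS 0 of the 46 passed at any of the 5 times in edgeR.

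Of 18 other miRNAs linked to dendrites, synapses or activity, 17 were annotated under their name and had 32 arms in the model. Between the time courses 5 arms were higher in the second, among them those of miR-29b, a miRNA known to act on spine form. The arms of miR-29b were miR-29b-3p (2.98, adjusted p = 0.00365 in edgeR) and miR-29b-5p (2.32, adjusted p = 0.0215 in edgeR). Another 3 arms were lower, among them miR-181a-3p (-2.07, adjusted p = 0.00828 in edgeR) and miR-22-3p (-1.65, adjusted p = 0.0243 in edgeR). These counts likewise stand beside 19.8% higher and 12.4% lower of all arms. The median was 0.65, and 0 of the 32 passed at any time after ECS in edgeR. Of the marker arms, 0 of 6 neuronal and 0 of 4 oligodendrocyte arms passed between the time courses, while 2 of 6 vascular arms (miR-143-3p at -2.59 and miR-145a-3p at -2.02), 1 of 5 red blood cell arms (miR-144-3p at -3.82) and the 1 myeloid arm tested (miR-142-5p at -2.60) were lower in the second, beside 12.4% of all arms. The medians were 0.49, 0.62, -1.12, 0.58 and -2.60 in the same order.

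The arms whose level over the 12 libraries was most like that of each member were taken from the other 211 arms that had 10 or more counts in each library, by Pearson's r of log2 CPM with TMM factors. For miR-134-5p they were miR-676-3p (r = 0.95), miR-181a-3p (0.92) and miR-582-3p (0.88). For miR-138-5p they were miR-33-5p (0.87), miR-873a-5p (0.82) and miR-134-5p itself (0.79). For miR-137-3p they were miR-15a-5p (0.90), miR-106b-5p (0.89) and miR-29c-3p (0.87). For miR-485-3p they were miR-126a-3p (0.93), miR-221-5p (0.90) and miR-25-3p (0.90), and for miR-485-5p miR-674-5p (0.77), miR-34c-5p (0.74) and miR-219a-3p (0.74). The libraries share their time course. For deviations from the time-course means the r values of miR-138-5p in the same order were 0.59, 0.47 and 0.40, and these arms were then 24th, 47th and 64th in likeness. For miR-134-5p they were 0.84, 0.76 and 0.61, with miR-582-3p then 15th, and for the other 3 arms they lay between 0.73 and 0.89. The arms of miR-485 had an r of 0.18 with each other.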

How the data were processed

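Total RNA of single hippocampi was size-selected on gels and cloned with Illumina's small RNA kit. The authors sequenced it on a Genome Analyzer IIx, removed adapters with the miR-Intess pipeline and deposited, for every library and before alignment, a list of distinct tags from 18 nt upward with the raw count of each. No normalization was applied to the deposited counts. The study aligned reads to mouse assembly 37, but no alignment was used here.

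Tags were matched over their full length to the miRNA hairpins of GENCODE M21 (GRCm38), and loci of 1 name were joined. A tag that matched several names was split equally, which concerned no tag of the 4 miRNAs. An arm is the 5′ or 3′ side of the hairpin's middle. Exact matching leaves out reads with an error or an added 3′ base, so counting by the first 18 nt was an alternative. An added base was counted where a tag without its last base matched exactly and the whole tag did not.

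Arms were fitted with edgeR 4.0.16 (R 4.3.3; quasi-likelihood test, TMM factors, 10 or more counts in 2 or more libraries, Benjamini-Hochberg adjusted over all 469 arms), with DESeq2 1.42.0 as an alternative. The SE printed with an edgeR value is its log2 fold change, without sign, divided by the square root of the test's F statistic. The study states no test for its sequencing counts, and the model for times after ECS was fitted without a block. Measures of a tag's arm, start, length and added base were compared by exact permutation, swapping the libraries of a time point in all 64 ways. Scripts were tested on simulated data. The replicate number marks the time course per the study, and same-numbered libraries deviated together (mean r = 0.52 over 15 pairs of groups, 0.31 to 0.79), so the fit with the time course as a block is given beside a result where it changes the call. The groups hold 2 mice each, so a difference is judged against very few animals.

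All arms of the 4 miRNAs are named. Of each list at most 4 arms past the threshold are named, here those furthest from 0 in each direction, and of likeness the 3 arms with the highest r. The members, lists and tests were chosen with earlier results of these data known. Python 3.11.15 with SciPy 1.17.1 gave the intervals and permutation tests.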

Additional observations from a re-analysis of the deposited data

Results flagged for a closer look

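Each level and measure was searched, in the 6 libraries of a time course, for 1 library far from the others (Dixon's test, 95% level). Of 52 such sets 8 held one, where chance gives about 1 in 20, or 2.6. The outlying libraries were 0.5h-2, 6h-2, NT-1 and 3h-1, and no value was left out because of it.

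In 0.5h-2 the 5′ arm of miR-485 made up 0.181% of miRNA counts, against 0.00832% to 0.0577% in the other 5 libraries of the second time course. The 5′ arm of miR-137 was also highest there, at 0.000873% (34 counts), against 0.000410% to 0.000535%.

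In 6h-2 the tags of miR-134-5p averaged 19.5 nt, against 20.1 to 20.2 nt, and 65.0% of them carried an added base (76 of 117 counts, Wilson 95% interval 56.0% to 73.0%), against 43.3% to 45.2%. Of the miR-485-3p tags in that library, 80.9% began at the most used start, against 45.9% to 57.2%, and 4.31% carried an added base (25 of 580 counts), against 9.98% to 13.0%. 6h-2 had the fewest accepted reads of all libraries. Its exact miRNA reads (1321437) were the fewest of the second time course, but more than those of NT-1 (1067558) and 6h-1 (439336).

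In NT-1 the miR-134-5p tags averaged 18.98 nt, against 19.8 to 19.97 nt in the rest of the first time course. In 3h-1, 41.7% of the miR-485-5p counts began at the main start (293 of 702, Wilson 95% interval 38.1% to 45.4%), against 92.0% to 94.7%. The cause of these values was not tested.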

How the results depend on the processing

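Of 704 values under alternatives, 671 kept their direction and their side of the threshold, or moved by less than a limit set for their kind. The limit for counts of called arms was wide, so that 222 (DESeq2) in place of 151 fell within it. After ECS, in place of 0 called arms, DESeq2 called 1 at 0.5 h and 2 at 3 h, DESeq2 with the time course as a block (added after seeing the data) 2, 5 and 3 at 0.5, 3 and 6 h, and edgeR without a filter 1 at 3 h. The block in edgeR left the count at 0 at all 5 times, and changed no other call of the 4 miRNAs. Between the time courses 85 arms in place of 151 passed with at least 10 counts in every library, where 212 arms were tested, and leaving out a library gave 92 (without 1h-1) to 157. DESeq2 called 222 (125 higher, 97 lower). DESeq2 moved miR-137-3p (1.07) past the threshold. miR-485-5p turned to -0.20 when scaled to the total miRNA count. Without 1 library each the 12 fits gave -2.59 to -2.04 for miR-134-5p and -2.16 to -1.60 for miR-138-5p. DESeq2 called miR-485-5p at 0.5 h (3.35, or 3.31 with the block).

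Other directions turned, none of them of a called value. Leaving out 1 library each gave -3.34 to 0.087 for miR-134-5p at 6 h (the latter without NT-1), -0.25 (without 24h-1) to 2.55 for miR-138-5p at 24 h, -0.010 (without NT-1) to 1.13 for miR-485-5p at 6 h, and -0.78 to 1.06 (without NT-2) for miR-485-3p at 6 h, which was also 0.10 without 6h-1, 0.018 with the block and 0.077 with the block in DESeq2. The share of the 5′ arm of miR-134 turned to 0.00728 points with the first 18 nt, the added bases of miR-137-3p to 1.16 points and the length of miR-485-5p to -0.224 nt with tags of at least 20 nt. Leaving out a time point gave -0.0416 to 0.106 nt for the latter. The untreated share of miR-485 differed by 23.4 to 31.2 points without 1 ECS library each.

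With 2 mice per group and no block in the model, the SE of a change after ECS was 0.99 to 1.41 on the log2 scale. This SE holds the difference between the time courses as well as that between mice. At this SE even a value of 3.29 did not pass in edgeR, and the size that could be detected was not measured. Counts of 41 (miR-134-5p, 6h-2) or under 10 (the rarer arms) limit single values.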

Other observations

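The ratio of miR-134-5p to miR-485-5p, whose hairpins lie in the same noncoding RNA gene, was 10.8 in NT-1 and 0.783 to 1.84 in the ECS libraries of the first time course. In the second it was 0.827 in NT-2 and 0.0878 to 0.373 in the ECS libraries. The untreated library was the highest of both time courses. The ratio to the 3′ arm of miR-485 showed no such order, with 3.23 in NT-1 and 0.595 to 3.94 in the ECS libraries, and 0.153 in NT-2 and 0.0739 to 0.341 in the ECS libraries. These ratios were computed after the levels were seen and were not tested.

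The ratio of miR-138-5p to miR-137-3p was 37.9 in NT-1 and 17.3 to 68.7 in the ECS libraries of the first time course, and 5.32 in NT-2 and 1.10 to 8.80 in those of the second. The 6 libraries of the first time course lay above all 6 of the second. How many other pairs of arms separate in this way was not counted.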
